A study of Danio rerio with 13 samples.

Results

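The response of arch neural crest cells to extra Endothelin1 (Edn1) was measured in 1 library of heat-shocked *hsp70I*:Gal4; *UAS*:Edn1 embryos, which was set against 2 heat-shocked control libraries. A gene was included when its RPKM (a read count scaled for transcript length and library size) was at least 3 in any of these 3 of the 13 libraries, which held for 8155 of the 27911 genes in the table (29.2%). It was called higher or lower with Edn1 overexpression when it lay at least 1.5-fold beyond both controls in the same direction, and only such genes are said below to have risen or fallen. Each condition has 1 library, so there is no replicate error and no test, and the distance between the controls is the only measure of spread.

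The Edn1 overexpression library came from zebrafish embryos with both *hsp70I*:Gal4, in which a heat-shock promoter drives the transcription factor Gal4 throughout the embryo, and *UAS*:Edn1, from which Gal4 transcribes Edn1. The controls carried *hsp70I*:Gal4 alone or *UAS*:Edn1 alone. All embryos also carried *fli1a*:EGFP and *sox10*:DsRed, and cells positive for both reporters were sorted as the arch neural crest population. Heat shock lasted from 20 to 24 hours post-fertilization (hpf) at 40 °C, and double-transgenic embryos were identified from tail biopsies taken at 24 hpf. From 27 hpf embryos were kept at 22 °C until about the 36 hpf stage. Each library pools cells of many embryos from an incross, whether the control embryos were biopsied is not given in the sources used here, and Gal4 was not restricted to the arches.

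Edn1 is a small secreted peptide made in the ventral arch epithelium and mesoderm. It binds endothelin type A receptors on arch neural crest cells and, through G proteins of the Gq family and Mef2c, turns on *dlx3b*, *dlx4a*, *dlx4b*, *dlx5a*, *dlx6a* and *hand2*, genes of the lower jaw and jaw joint. Dorsal arch cells, which receive little Edn1, express *jag1b*, *pou3f3a* and *pou3f3b* and form the upper face.

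Relative to the wild-type 36 hpf library, sequencing depth was 0.939 for Edn1 overexpression, 1.23 for the *hsp70I*:Gal4 control and 0.797 for the *UAS*:Edn1 control, and an RPKM of 3 stood for 322, 422 and 273 reads of the median gene in that order. The controls differed from each other by at least 1.5-fold for 1008 genes (12.4%), of which 430 were higher with *hsp70I*:Gal4 and 578 with *UAS*:Edn1. The median log2 ratio of Edn1 overexpression over all genes tested (with 0.1 added to each RPKM) was -0.04 to the *hsp70I*:Gal4 control and -0.18 to the *UAS*:Edn1 control, so decreases are easier to reach than increases in the deposited values. The crest genes *dlx2a*, *twist1a*, *prrx1a*, *fli1a* and *sox10* were present in all 3 libraries, with summed RPKM of 422 with Edn1 overexpression, 444 in the *hsp70I*:Gal4 control and 510 in the *UAS*:Edn1 control. In sorted cells pooled into 1 library, fewer cells of a type and less RNA per cell cannot be told apart.

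With Edn1 overexpression 95 genes rose (1.16% of those tested) and 126 fell (1.55%). Most changes were small: the median fold over the nearer control was 1.75 among the genes that rose and 1.70 among those that fell, and 28 and 23 genes passed 2-fold. Just inside the limit were *mob2a*, at 5.84 with Edn1 overexpression against 3.01 and 3.89 in the *hsp70I*:Gal4 and *UAS*:Edn1 controls, and *bmp4*, at 2.93 against 4.39 and 4.73. Just outside it were *gpnmb*, at 4.97 against 2.74 and 3.32, and *emilin1a*, at 4.28 against 6.40 and 7.15. When the 3 libraries were rescaled by their median ratio and the same 8155 genes were kept, 147 genes rose (1.80%), among them all 95, and 78 fell (0.956%), all of them among the 126. Of the 95 genes that rose, 27 had both controls below an RPKM of 3 and were included only because of their level with Edn1 overexpression, so they had to differ. Among the 126 that fell, 62 were below an RPKM of 3 with Edn1 overexpression and were included only because of their level in a control.

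**Figure D1:**
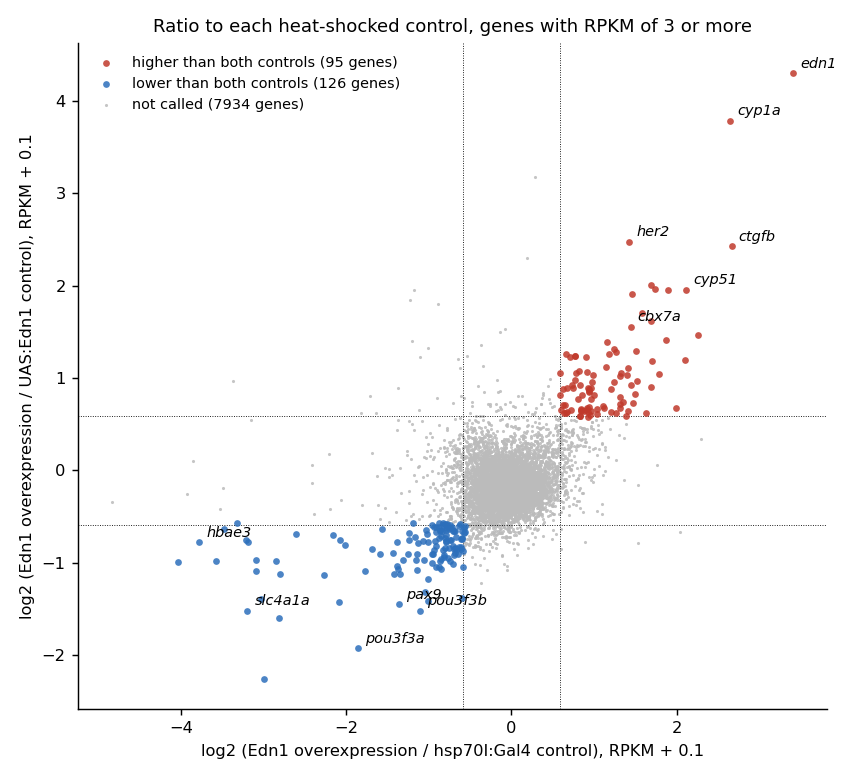
Each point is 1 of the 8155 genes tested, placed by the log2 ratio of its RPKM with Edn1 overexpression to the *hsp70I*:Gal4 control (horizontal) and to the *UAS*:Edn1 control (vertical), with 0.1 added to each RPKM; dotted lines mark 1.5-fold. The 95 genes that rose (red) and 126 that fell (blue) lie beyond both controls, *edn1*, *cyp1a* and *ctgfb* stand farthest out among increases, and the blood genes *slc4a1a* and *hbae3* lie farther from the *hsp70I*:Gal4 control than from the *UAS*:Edn1 control.

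The targeted gene was examined first. *edn1* was at 6.31 with Edn1 overexpression, against 0.502 in the *hsp70I*:Gal4 control and 0.225 in the *UAS*:Edn1 control. These values stand for 364, 38 and 11 reads, and the ratio to the *hsp70I*:Gal4 control had an exact 95% counting interval of 8.98 to 18.0, to the *UAS*:Edn1 control of 15.5 to 56.7. Such intervals cover counting error only and compare libraries, not conditions. The library labelled as overexpressing thus held the most *edn1* RNA; whether its reads came from the transgene or from the genomic copy cannot be told apart in gene-level values.

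The other genes of Edn1 signaling moved little. Of 20 matched genes of this list 9 were tested. Beside 1.16% and 1.55% of all genes, 1 of them rose (*edn1*) and 1 fell. That gene was *ednrab*, 1 of the zebrafish type A receptors, at 27.4 with Edn1 overexpression against 44.5 in the *hsp70I*:Gal4 control and 43.2 in the *UAS*:Edn1 control. The controls lay close together and the fold was 1.58, but only 1.39 after rescaling. The other type A receptor, *ednraa*, was at 64.5 against 53.3 and 61.1, within 1.5-fold of each control. *mef2ca*, the transcriptional effector, was at 3.23 against 2.19 and 2.17, a fold of 1.47 that passed 1.5-fold after rescaling. As for *edn1*, both controls were below an RPKM of 3. Both genes were included only because of their level with Edn1 overexpression, so they had to lie above both controls. The converting enzyme *ece1* (3.69 against 4.33 and 4.11), *ece2b* (4.52 against 3.47 and 5.20), the protease *furina* (3.91 against 3.53 and 5.32), *gna11b* (4.76 against 6.05 and 5.52) and *mef2d* (2.97 against 3.36 and 3.17) were all within 1.5-fold of both controls. The remaining 11 genes, among them *edn2*, *ednrba*, *ednrbb*, *plcb3* and *gnaq*, were below an RPKM of 3 in the 3 libraries.

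Ventral and intermediate arch factors were then compared. Of 29 tested genes 7 rose and 3 fell, against 1.16% and 1.55% of all genes. The list median of the log2 ratio was 0.08 to the *hsp70I*:Gal4 control and -0.08 to the *UAS*:Edn1 control, beside -0.04 and -0.18 for all genes tested. By any amount 13 of the 29 lay above both controls and 13 below both. The list was written with results of these data known, so its count describes these genes and is not independent evidence of a direction. The matricellular growth factor gene *ctgfb* changed most, at 146 with Edn1 overexpression against 22.9 in the *hsp70I*:Gal4 control and 27.1 in the *UAS*:Edn1 control, or 5.39-fold over the nearer control. *fgfbp2a*, an Fgf carrier protein gene, was at 10.2 against 4.41 and 4.18. *grem2b*, which encodes a secreted Bmp antagonist, was the most abundant gene of the group at 234 against 138 and 119.

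Among the *dlx* genes *dlx4a* and *dlx4b* rose. *dlx4a* was at 152 with Edn1 overexpression, against 74.4 in the *hsp70I*:Gal4 control and 96.1 in the *UAS*:Edn1 control. *dlx4b* was at 67.4 against 32.9 and 44.0, 1.53-fold over the *UAS*:Edn1 control with an exact counting interval of 1.46 to 1.61, so the limit itself lies within counting error. The noncoding RNA of the *dlx5a*-*dlx6a* locus (*si:ch73-351f10.4*) was at 13.8 against 4.94 and 8.31. The other *dlx* genes of the ventral list lay above both controls without passing 1.5-fold over the *UAS*:Edn1 control: *dlx5a* was 1.34-fold over it, *dlx3b* 1.30-fold and *dlx6a* 1.28-fold. After rescaling *dlx5a* passed at 1.51-fold, while *dlx3b* (1.47) and *dlx6a* (1.45) did not. In all 5 protein-coding *dlx* genes of the ventral list the *UAS*:Edn1 control lay between Edn1 overexpression and the *hsp70I*:Gal4 control. *igfbp5b*, an insulin-like growth factor binding protein gene, was the last of the 7, at 19.5 against 10.8 and 12.4.

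The 3 genes of the list that fell encode transcription factors, and all 3 calls were lost after rescaling. *osr1* was at 5.55 with Edn1 overexpression against 9.11 in the *hsp70I*:Gal4 control and 8.80 in the *UAS*:Edn1 control. *msxc* was at 18.4 against 27.9 and 30.9. *gsc* was at 6.38 against 9.90 and 9.58. For each of them the controls lay closer to each other than to the Edn1 overexpression library. The other tested members were not called. *hand2*, required for the ventral arch, was at 74.6 against 78.7 and 107. The pre-cartilage gene *barx1* was at 63.4 against 66.2 and 66.9, the joint gene *nkx3.2* at 10.9 against 7.71 and 6.68, and the ephrin receptor gene *epha4b* at 27.7 against 19.5 and 24.3. *nkx3.2* and *epha4b* were above both controls, *hand2* and *barx1* below both. Of other tested members *msxe* was above both controls, *foxd1*, *emx2* and *foxf2a* lay between them, and *msxb*, *msxd*, *shox*, *foxf1*, *osr2*, *tbx2a* and *tbx2b* were below both. Untested for low values were *shox2*, *gdf5*, *tbx3a*, *fgfbp2b* and *igfbp5a*.

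Most dorsal arch factors lay below both controls. This list, too, was written with results of these data known, so its counts are not independent evidence of a direction. Of 28 tested genes 6 fell and 1 rose, 19 lay below both controls by any amount and 4 above both, beside 1.55% and 1.16% of all genes called and 3671 and 893 of all 8155 genes below and above both. The list median of the log2 ratio was -0.43 to the *hsp70I*:Gal4 control and -0.47 to the *UAS*:Edn1 control, beside -0.04 and -0.18 for all genes tested. All 6 decreases stayed called after rescaling. With Edn1 overexpression *pou3f3a*, *pax9* and *lhx8a* were below an RPKM of 3, so they were included because of their level in the controls. *pou3f3a*, a POU-domain factor of the upper face, was at 1.86 with Edn1 overexpression against 7.02 in the *hsp70I*:Gal4 control and 7.32 in the *UAS*:Edn1 control. This was 3.78-fold below the nearer control (270 reads against 1338, exact counting interval of the ratio 3.31 to 4.32). Its paralog *pou3f3b* was at 14.8 against 32.0 and 42.6, 2.17-fold below the nearer control. The pair thus fell in both comparisons while their controls differed by less than 1.5-fold.

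The other 4 dorsal genes that fell encode homeobox, paired-box or Eya factors. *pax9* was at 2.16 with Edn1 overexpression against 5.72 in the *hsp70I*:Gal4 control and 6.07 in the *UAS*:Edn1 control. *lhx6* was at 8.50 against 15.5 and 17.9, and *lhx8a* at 2.36 against 4.39 and 4.77. These LIM-homeobox genes pattern the oral side of the maxillary region in mice. *eya1*, a transcriptional co-activator and phosphatase that partners sine oculis-type homeobox proteins, was at 17.7 against 27.9 and 31.9. Its partners were below both controls without being called, with *six1a* at 37.7 against 53.2 and 56.3 and *six2a* at 12.5 against 17.6 and 17.3.

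Other dorsal genes that are prominent in work on Edn1 were within 1.5-fold of the nearer control. *jag1b*, the Notch ligand of the dorsal arch, was at 16.8 with Edn1 overexpression against 22.9 in the *hsp70I*:Gal4 control and 27.8 in the *UAS*:Edn1 control, which is 1.37-fold below the nearer control. The skeletal progenitor factor *prrx1a* was at 73.0 against 82.5 and 102, and *prrx1b* at 48.3 against 65.4 and 85.9. All 3 lay below both controls. *nr2f6b*, which encodes a nuclear receptor, was the single member that rose, at 40.6 against 21.3 and 26.1. The other Nr2f genes were not called, and *nr2f5* at 45.03 against 44.7 and 60.3 lay between its controls. *hey1*, a Notch target, was at 132 against 66.8 and 91.7, 1.44-fold over the nearer control and 1.63-fold after rescaling. *dlx1a* (47.8 against 41.6 and 49.2) and *dlx2a* (177 against 145 and 190), which mark the whole arch, lay between the controls. Of the remaining tested genes, *six1b*, *six4b*, *eya2*, *twist1a*, *twist1b*, *twist2*, *nr2f1a* and *nr2f2* were below both controls, *hey2* and *fsta* above both, and *nr2f1b* and *nr2f6a* between them.

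**Figure D2:**
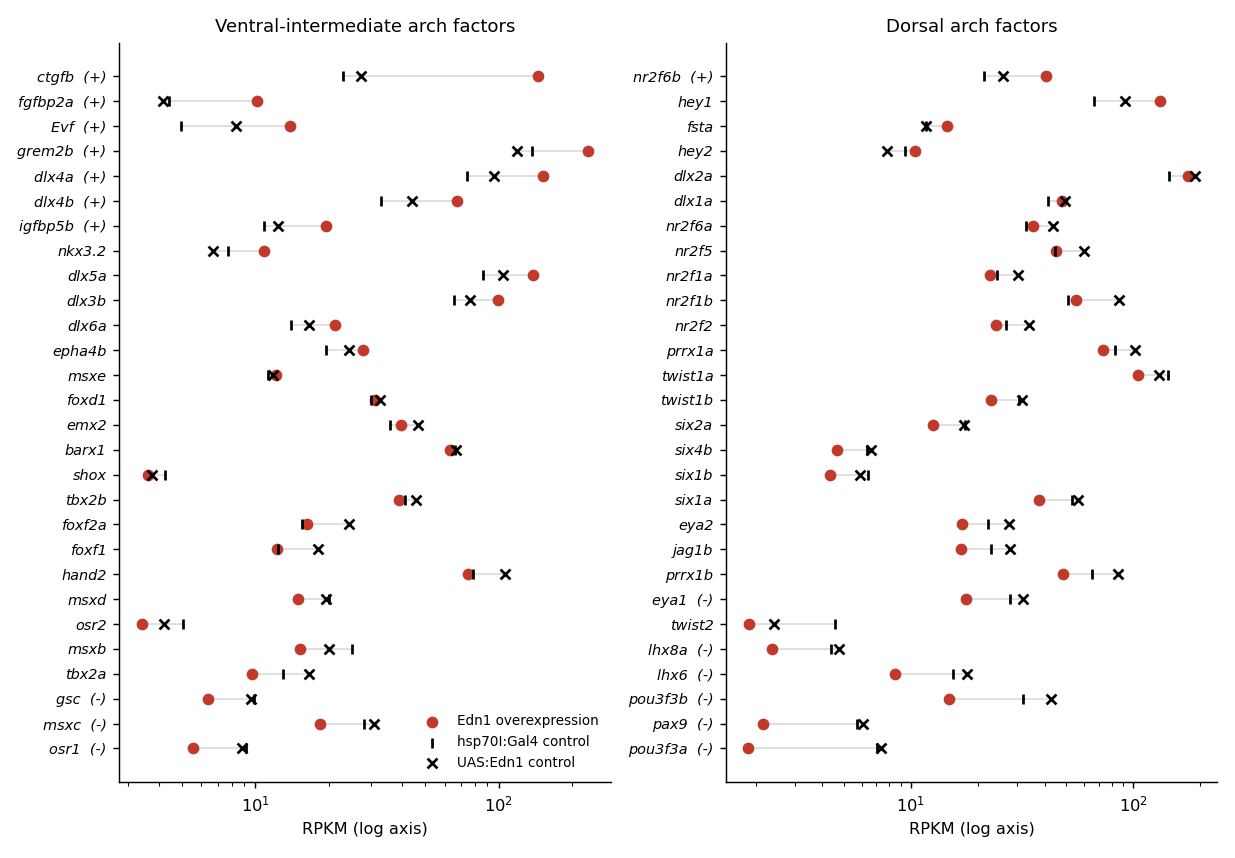
RPKM (log axis) of tested ventral-intermediate (left) and dorsal (right) arch factors with Edn1 overexpression (red circles), in the *hsp70I*:Gal4 control (bars) and in the *UAS*:Edn1 control (crosses), ordered by the product of the 2 ratios; (+) and (-) mark genes that rose or fell, and Evf is *si:ch73-351f10.4*. The circles of 7 ventral-intermediate genes lie clear to the right of both controls, and those of *pou3f3a*, *pax9*, *pou3f3b*, *lhx6*, *lhx8a* and *eya1* clear to the left.

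Many of the largest increases lay outside the arch patterning genes. After *edn1*, the next was *cyp1a*, which encodes a monooxygenase induced through the aryl hydrocarbon receptor, at 10.8 with Edn1 overexpression against 1.64 in the *hsp70I*:Gal4 control and 0.688 in the *UAS*:Edn1 control. Its ratio to the *hsp70I*:Gal4 control was 6.58 (exact counting interval 5.76 to 7.53). Both controls were below an RPKM of 3, so *cyp1a* was included because of its level with Edn1 overexpression. The related *cyp1c1* was at 11.0 against 3.59 and 3.29. In unshocked embryos *cyp1a* was at 2.98 in the wild-type 36 hpf library and 8.16 in *jag1b* wild-type siblings, so for this gene the heat-shocked controls were the lowest of these 5 libraries. It was at 21.0 in *fli1a*:EGFP single-positive cells.

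Sterol synthesis genes were among the increases. Of 16 tested genes of the sterol list 5 rose and 0 fell, but *cyp51*, *msmo1* and *hmgcs1* had both controls below an RPKM of 3 and were tested only because of their level with Edn1 overexpression, so this count describes these genes and supports no statement on the list. *cyp51*, which removes the 14-methyl group of lanosterol, was at 5.95 with Edn1 overexpression against 1.29 in the *hsp70I*:Gal4 control and 1.46 in the *UAS*:Edn1 control (731, 208 and 152 reads). *msmo1*, for the next demethylation, was at 3.12 against 0.898 and 0.702. *insig1*, the sterol-sensing brake on this pathway, was at 15.8 against 5.88 and 7.29. *hmgcs1*, for an early step, was at 4.86 against 1.89 and 2.77, and *hsd17b7* at 5.42 against 3.56 and 3.04. *tm7sf2*, a sterol reductase gene that was not on the list and is among the 12 largest increases, was at 3.83 against 1.33 and 0.946. It too was included only because of its level with Edn1 overexpression. Below the RPKM limit of 3, the rate-limiting enzyme gene *hmgcra* was at 1.63 against 0.244 and 0.301 and *sqlea*, which makes squalene epoxide, at 1.36 against 0.112 and 0.118. The paralog *hmgcrb* was at 9.81 against 8.16 and 11.0, and the transcription factor gene *srebf2* at 6.19 against 5.76 and 6.16.

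The other genes among the 12 largest increases had varied roles. *mmp17b*, a membrane-bound matrix metalloproteinase gene, was at 3.73 with Edn1 overexpression against 1.05 in the *hsp70I*:Gal4 control and 0.882 in the *UAS*:Edn1 control. *pthlha*, which encodes a parathyroid hormone-like peptide, was at 4.39 against 1.29 and 1.36. The Krüppel-like factor gene *klf9* was at 4.605 against 0.884 and 1.60. For each of these genes the controls were below the RPKM limit of 3, so it was included because of its level with Edn1 overexpression. *cbx7a*, a Polycomb chromodomain gene, was at 45.8 against 16.8 and 15.5, and the glycolytic gene *aldoab* at 13.2 against 3.56 and 4.90.

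**Figure D3:**
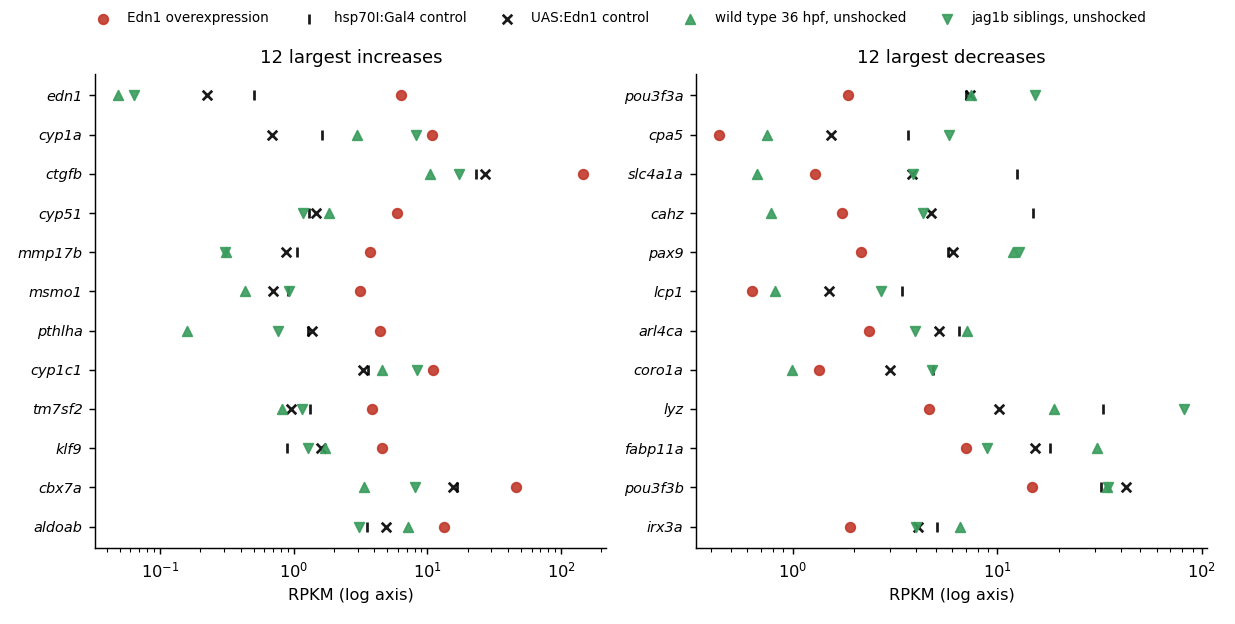
RPKM (log axis) of the 12 genes with the largest increase (left) and decrease (right) over the nearer control, with Edn1 overexpression (red), in the *hsp70I*:Gal4 (bars) and *UAS*:Edn1 (crosses) controls and in unshocked wild types at 36 hpf and *jag1b* siblings (green). The Edn1 overexpression value is the highest of the 5 for all 12 genes on the left. On the right it is below all 4 other libraries for *pou3f3a*, *pax9*, *pou3f3b*, *cpa5*, *lcp1*, *arl4ca*, *lyz*, *fabp11a* and *irx3a*. *slc4a1a*, *cahz* and *coro1a* are lower still in the wild-type 36 hpf library.

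Genes of the Ctgf and Cyr61 family and of Hippo signaling were examined because of *ctgfb*. Of 20 tested genes of the Tgf-beta and Ctgf-Cyr61 list 2 rose and 0 fell, beside 1.16% and 1.55% of all genes. *ctgfb* itself stood on the ventral list. By any amount 6 of the 20 lay above both controls and 6 below both, beside 893 and 3671 of all 8155 genes. The list was examined because of *ctgfb*, so its count describes these genes and is not independent evidence of a direction. *ctgfa* was at 75.1 with Edn1 overexpression against 39.0 in the *hsp70I*:Gal4 control and 40.8 in the *UAS*:Edn1 control, 1.84-fold over the nearer control (exact counting interval 1.77 to 1.92). *amotl2b*, for a scaffold protein that binds Yap, was at 9.63 against 4.83 and 4.91. Not called were *cyr61* (157 against 122 and 94.9) and *tgfbi* (266 against 227 and 288). Levels of *yap1* were 74.7 against 65.6 and 87.8. The ligand genes *tgfb1a*, *tgfb2* and *tgfb3* were all within 1.5-fold of both controls.

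In the Bmp pathway, 2 of 26 tested genes rose (7.69%, beside 1.16% of all genes) and 3 fell (11.5%, beside 1.55%). The antagonist gene *nog2* was at 64.6 with Edn1 overexpression against 25.9 in the *hsp70I*:Gal4 control and 31.8 in the *UAS*:Edn1 control, and the type I receptor gene *bmpr1ba* at 51.4 against 22.2 and 27.9. The ligand genes *bmp2b* (3.78 against 6.40 and 6.42) and *bmp4* fell, as did the inhibitory *smad7* (13.3 against 20.1 and 24.5). After rescaling only *bmp2b* of these was still called. *bmp4*, at 2.93 with Edn1 overexpression, was included only because of its level in the controls. The Bmp target *id3* (98.3 against 78.5 and 81.6) lay above both controls and was not called. The ligand gene *bmp5* was at 46.3 against 43.0 and 49.7. Outside these lists, *inhbb*, an activin subunit gene, was at 12.4 against 5.55 and 5.62; it is named here for its change in *edn1* mutants below.

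Among genes of the Notch pathway, 3 of 28 tested rose (10.7%, beside 1.16% of all genes) and 1 fell (3.57%, beside 1.55%). *her2*, a basic helix-loop-helix repressor gene and Notch target, was at 115 with Edn1 overexpression against 42.6 in the *hsp70I*:Gal4 control and 20.6 in the *UAS*:Edn1 control. The controls were themselves 2.07-fold apart, with the Edn1 library 2.70-fold over the higher. *her15.2* was at 146 against 51.0 and 59.4 and *her15.1* at 128 against 78.2 and 54.5; these copies are so alike that their reads cannot be assigned with certainty. The 3 genes, and the called clone-named gene *si:ch211-193l2.6*, are neighbours in the GRCz12tu annotation. Of 189 called genes placed there, 5 adjacent pairs were found, each called in 1 direction; besides the *her* cluster they were *fam174b* with *st8sia2* and *irx5a* with *irx3a*. The *her4* genes, *her6* (244 against 288 and 218) and *her9* (180 against 163 and 138) were not called. *dll4*, a vascular Notch ligand gene, fell to 2.03 against 3.07 and 3.18 and lost its call after rescaling. It was included only because of its level in the controls.

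Other signaling lists held few calls, given here beside the 1.16% of all genes that rose and the 1.55% that fell. In the Wnt list, 1 of 23 genes rose and 2 fell: the Wnt deacylase gene *notum1a* was at 16.6 with Edn1 overexpression against 6.43 in the *hsp70I*:Gal4 control and 9.91 in the *UAS*:Edn1 control, *wnt11r* at 10.3 against 22.9 and 20.2, and the secreted inhibitor gene *sfrp1a* at 8.66 against 17.9 and 21.6. In the Fgf list only *etv4* of 20 genes was called, at 5.55 against 11.3 and 9.53, while *dusp6* (63.0 against 46.2 and 62.1) and *spry4* (69.2 against 51.2 and 67.6) were close to the *UAS*:Edn1 control. In the Hedgehog list only *foxf2b* of 13 was called, at 2.14 against 3.52 and 4.11. None of 13 retinoic acid genes was called in either direction, beside 1.16% and 1.55% of all genes. Among 39 guidance and adhesion genes 4 fell (10.3%, beside 1.55% of all genes) and 0 rose, and 24 lay below both controls by any amount (61.5%, beside 3671 of all 8155 genes). They were the chemokine gene *cxcl12a* (15.0 against 26.2 and 23.3), its receptor *cxcr4a* (2.43 against 4.18 and 4.42), *efna1b* and *sema3e*, of which only *cxcr4a* kept its call after rescaling. Both *cxcr4a* and *foxf2b* were included only because of their level in the controls.

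Cartilage and skeletal genes showed no call among 22 tested. Beside 1.16% of all genes that rose and 1.55% that fell, so few genes show nothing. *hapln1a*, a matrix link protein gene, was at 169 with Edn1 overexpression against 91.7 in the *hsp70I*:Gal4 control and 123 in the *UAS*:Edn1 control. After rescaling 2 of the 22 rose, among them *hapln1a*. *col1a1a* was at 67.3 against 96.5 and 110. Among frontonasal factors, the aristaless-related factor gene *alx1* fell to 3.25 against 5.93 and 6.42, and *pitx3* to 1.81 against 4.26 and 2.73, the second not called after rescaling. *alx4a* was not called, at 9.22 against 10.3 and 9.58. Of 20 Hox genes and cofactors 3 fell (15.0%, beside 1.55% of all genes) and 0 rose: *meis3* was at 21.8 against 38.8 and 39.6, *hoxb5a* at 1.46 against 3.78 and 2.97, and its paralog *hoxb5b* was the third. In the forkhead list *foxl1* and *foxf2b* of 14 genes fell (14.3%, beside 1.55% of all genes). In the crest specifier list *tfap2a* and *zic2b* of 11 fell (18.2%). Among these, *foxl1* and *tfap2a* lost the call after rescaling. Of 13 matrix protease genes *mmp17b* and *timp2b* rose (15.4%, beside 1.16% of all genes) and *mmp9* fell (7.69%, beside 1.55%). Both that rose had their controls below an RPKM of 3. Among genes of these lists that fell, *hoxb5a*, *zic2b*, *foxf2b*, *pitx3* and *mmp9* were below an RPKM of 3 with Edn1 overexpression. They were included only because of their level in a control, so these shares describe the genes and support no statement on the lists.

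Lists related to growth and handling were examined as well, beside the 1.16% of all genes that rose and the 1.55% that fell. Of 50 cell cycle genes 1 rose, *mych* at 71.1 with Edn1 overexpression against 29.5 in the *hsp70I*:Gal4 control and 46.2 in the *UAS*:Edn1 control, and 1 fell, its relative *myca* at 5.61 against 10.01 and 8.52. *pcna*, a replication clamp, was at 512 against 514 and 539. Of 28 heat shock genes only the co-chaperone *bag3* was called, at 11.7 against 5.34 and 7.30, and *hspa8* was at 1715 against 1893 and 2078. Among 38 immediate early genes, which respond within minutes to growth factors and to stress, *gadd45ab*, *gadd45bb*, *socs3a* and *klf2b* rose (10.5%, beside 1.16% of all genes) and *nr4a1* fell, and 21 lay above both controls by any amount (55.3%, beside 11.0% of all genes). In glycolysis, *aldoab* and *gapdh* of 17 genes rose (11.8%). The part of cell handling in these values was not tested.

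Markers of other cell types moved with part of the decreases. The 10 tested erythroid entries summed to 126 RPKM with Edn1 overexpression, 1430 in the *hsp70I*:Gal4 control and 212 in the *UAS*:Edn1 control. Of these 6 fell (60.0%, beside 1.55% of all genes) and 9 lay below both controls. Among those that fell, *alas2* and *slc4a1a* were below an RPKM of 3 with Edn1 overexpression. They were included only because of their level in a control. The macrophage and neutrophil genes summed to 9.82, 56.2 and 20.4. Here 4 of 5 tested fell, beside 1.55% of all genes, among them the lysozyme gene *lyz* at 4.63 against 32.8 and 10.2. The others that fell, *lcp1*, *coro1a* and *npsn*, reached an RPKM of 3 only in the *hsp70I*:Gal4 control. They were included only because of that level, so they had to lie below that control. The erythroid and the macrophage and neutrophil shares thus describe these genes and support no statement on the lists. The defining erythroid genes were not at 0 in any of the 3 libraries, with *gata1a* at 0.323 against 3.68 and 0.190. Of the 126 genes that fell, 25 (19.8%) were at least 3-fold higher in *fli1a*:EGFP single-positive than in double-positive wild-type cells, beside 1.79% of all genes tested, and of the 95 that rose 15 (15.8%) were. Of the genes that rose 16 (16.8%), and of those that fell 10 (7.94%), were at least 3-fold higher in the *sox10*:DsRed single-positive library than in the wild-type double-positive one, beside 3.10% of all genes tested. They include *her2*, at 51.8 in those cells and 13.5 in wild-type double-positive cells at 36 hpf, *her15.1* and *mmp17b*. The red cell anion exchanger gene *slc4a1a* was at 307 in *fli1a*:EGFP single-positive cells. Without the genes at least 3-fold higher in *fli1a*:EGFP single-positive cells 80 genes rose and 101 fell. The part of other cell types in the results was not tested. Epidermal genes showed no call among 7, muscle genes 1 increase (*acta1a*) among 5, and ear, pigment and neuron genes none among 10. Of 2 tested endothelial genes *egfl7* fell, and both lay below both controls. With Edn1 overexpression *egfl7* was below an RPKM of 3, so it was included only because of its level in the controls. Beside 1.16% of all genes that rose and 1.55% that fell, lists this short without a call show nothing.

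Arch-enriched genes were those with an RPKM of at least 3 in wild-type double-positive cells at 36 hpf that were 1.5-fold or more above the *fli1a*:EGFP and the *sox10*:DsRed single-positive cells, none of which is among the 3 libraries compared. Of 656 such genes tested, 12 rose (1.83%) and 30 fell (4.57%), beside 1.16% and 1.55% of all genes. After rescaling the counts were 18 and 24. The 12 that rose were *ctgfb*, *fgfbp2a*, *nog2*, *bmpr1ba*, *pcdh18a*, *grem2b*, *si:ch73-351f10.4*, *asap3*, *dlx4a*, *igfbp5b*, *aoc2* and *dlx4b*. Of those not yet described, *pcdh18a*, a protocadherin gene, was at 75.7 with Edn1 overexpression against 37.8 in the *hsp70I*:Gal4 control and 42.8 in the *UAS*:Edn1 control. The 10 arch-enriched genes that fell most were *pou3f3a*, *pax9*, *pou3f3b*, *prss35*, *sfrp1a*, *hoxb5a*, *ppp1r3ca*, *vwa1*, *isl2a* and *lhx8a*. *prss35*, a secreted protease-like gene, was at 4.36 against 9.73 and 9.32, and the LIM-homeobox gene *isl2a* at 2.63 against 5.17 and 5.002. *postnb*, an abundant matrix gene, was also lower at 40.5 against 76.1 and 71.5.

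The called genes were then looked up in wild-type double-positive cells without heat shock at 20, 28 and 36 hpf. Of the 30 arch-enriched genes that fell with Edn1 overexpression, 25 (83.3%) were at least 1.5-fold higher at 36 than at 28 hpf in wild types, beside 29.6% of all arch-enriched genes tested. The 36 hpf library also defines the arch-enriched genes. *pou3f3a* was at 0.590 at 28 hpf and 7.40 at 36 hpf, and *pax9* at 1.29 and 11.9. With Edn1 overexpression *pou3f3a* at 1.86 and *pax9* at 2.16 were nearer to the 28 hpf than to the 36 hpf wild-type value. In the *hsp70I*:Gal4 and *UAS*:Edn1 controls *pou3f3a* was at 7.02 and 7.32, nearer to the 36 hpf value. *pax9* was at 5.72 and 6.07 in these controls, by difference also nearer to the 28 hpf value, though by ratio nearer to the 36 hpf value. Over all genes, 59 of the 126 that fell (46.8%) were higher at 36 than at 28 hpf, beside 12.5% of all tested, and 51 of the 95 that rose (53.7%) were lower at 36 than at 28 hpf, beside 20.8%. The other way, 39 of the 126 that fell (31.0%) were lower at 36 than at 28 hpf, also above 20.8%. Of the 95 that rose, 12 (12.6%) were higher, near 12.5%. Without the genes that differed by 1.5-fold between 28 and 36 hpf, 32 genes rose and 28 fell, of which 6 and 3 were arch-enriched. The stage of the pooled embryos was set by incubation at 22 °C, and its part in these results was not tested.

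**Figure D4:**
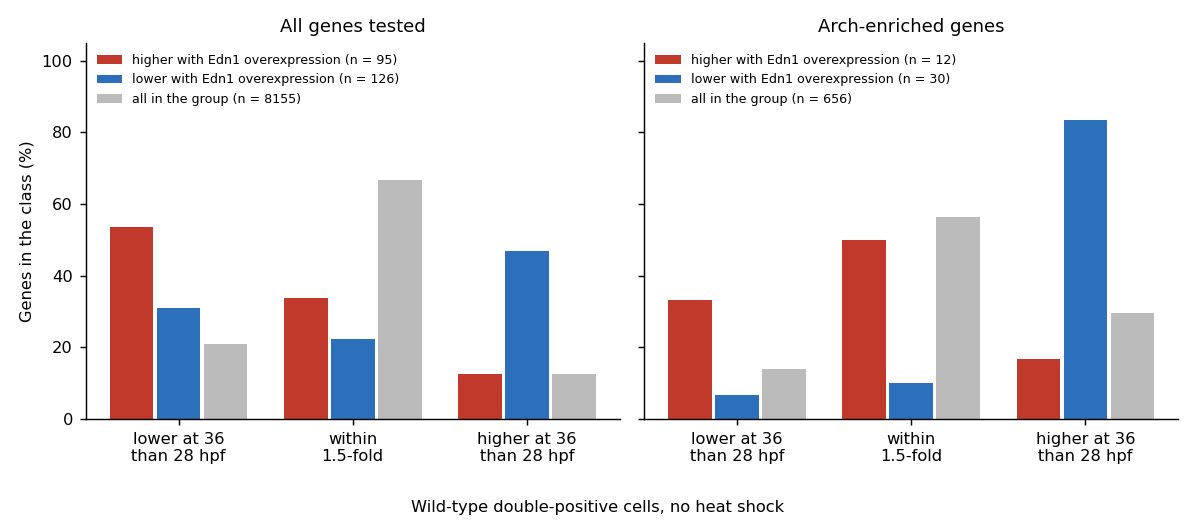
Share (%) of genes that were lower, within 1.5-fold or higher at 36 than at 28 hpf in unshocked wild-type double-positive cells, for genes that rose (red) or fell (blue) with Edn1 overexpression and for all genes of the group (grey), over all genes tested (left) and arch-enriched genes (right). The tallest blue bar is the 83.3% of arch-enriched genes that fell and were higher at 36 hpf, and the red bar over the class lower at 36 hpf is at 53.7% of all genes that rose.

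The same genes were examined in *edn1* mutants, whose library and unshocked controls (wild types at 36 hpf and *jag1b* wild-type siblings) are not among the 3 heat-shocked libraries. *edn1* mutants were at least 1.5-fold below both of their controls for 5.44% of all genes tested and above both for 17.4%. Of the 95 genes that rose with Edn1 overexpression, 39 (41.1%) were lower in *edn1* mutants and 1 (*gpd1a*) was higher. No RPKM minimum was set for the mutant comparison, and some of the 39 were also low in its controls. *arhgef19*, for example, was at 0.105 in mutants against 0.215 in wild types and 0.795 in *jag1b* siblings. Of the 126 that fell, 24 (19.0%) were higher in *edn1* mutants, close to the 17.4% of all genes, and 16 (12.7%) were lower. In the deposited values the share was thus above that of all genes for genes that rose and near it for genes that fell. The 39 include *edn1* itself and other genes, such as *cyp1a* and *klf9*, with both heat-shocked controls below an RPKM of 3. Such genes were tested only because of their level with Edn1 overexpression and were not left out, so the 2 shares cover unlike genes. Likewise 62 of the 126 that fell were included only because of their level in a control. With the libraries of each comparison rescaled, 69 of 147 genes that rose were lower in *edn1* mutants (46.9%, beside 11.9% of all genes tested), and 9 of 78 that fell were higher (11.5%, beside 5.62%). After rescaling both shares were thus above those of all genes.

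The opposite pairs included most of the arch genes that rose. *ctgfb* was at 0.877 in *edn1* mutants, against 10.41 in wild types and 17.3 in *jag1b* siblings, 11.9-fold below the nearer control. *fgfbp2a* was at 0.8496 against 3.99 and 7.72, *nog2* at 2.25 against 10.3 and 22.4, and *ctgfa* at 9.28 against 36.0 and 49.1. Of the 12 arch-enriched genes that rose, 7 were lower in *edn1* mutants (58.3%, beside 8.99% of all arch-enriched genes tested), and of the 30 that fell 7 were higher (23.3%, beside 12.7%). The 5 that rose without being called lower in mutants were *grem2b* (99.7 against 117 and 112), *bmpr1ba*, *pcdh18a*, *asap3* and *aoc2*. *her2* was at 4.03 against 13.5 and 34.2 and *her15.2* at 12.7 against 26.5 and 55.7. *inhbb* was at 1.34 against 4.46 and 7.78, *bcar3*, an adaptor protein gene, at 0.109 against 0.305 and 2.21, and *cyp1a* at 1.19 against 2.98 and 8.16. For *bcar3*, *her2*, *her15.2*, *nog2* and *cyp1a* the unshocked controls were themselves more than 2-fold apart.

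Sterol genes were not called in the mutants. *cyp51* was at 1.41 in *edn1* mutants, against 1.82 in wild types and 1.18 in *jag1b* siblings, and *insig1* at 12.4 against 11.9 and 7.19. Of the 5 sterol genes that rose with Edn1 overexpression 0 were called lower in *edn1* mutants, beside 5.44% of all genes, a share at which so few genes show nothing. Of the genes that did not vary by 1.5-fold between 28 and 36 hpf, 13 of the 32 that rose (40.6%) were lower in *edn1* mutants, beside 3.26% of all genes in that class. In the class lower at 36 than at 28 hpf the corresponding values were 24 of 51 (47.1%) and 12.2%. Both counts include genes tested only because of their level with Edn1 overexpression, such as *ppapdc3* among the 13 and *edn1* itself and *klf9* among the 24. No RPKM minimum was set for the mutant comparison here either, so the shares cover unlike genes.

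Among genes that fell with Edn1 overexpression, *pou3f3b* had the largest opposite pair by the smaller of its folds, at 86.2 in *edn1* mutants against 34.5 in wild types and 34.7 in *jag1b* siblings. *pax9* was at 25.4 against 11.9 and 12.7. The GATA factor genes *gata2a* (32.0 against 16.2 and 8.33) and *gata3* (30.2 against 15.6 and 11.5) were also higher in *edn1* mutants; with Edn1 overexpression *gata3* was at 8.44 against 16.5 in the *hsp70I*:Gal4 control and 16.9 in the *UAS*:Edn1 control, and *gata2a* at 5.21 against 13.7 and 10.8. *alx1* was at 33.6 in mutants against 14.1 and 6.81. *pou3f3a*, by contrast, was at 9.59 in *edn1* mutants, between 7.40 in wild types and 15.19 in *jag1b* siblings. *lhx6* and *lhx8a* (10.2 against 6.70 and 10.9) were not called in mutants either. *ednrab* was higher in *edn1* mutants at 15.3 against 7.86 and 7.34, although all 3 values lay below those of the heat-shocked libraries.

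**Figure D5:**
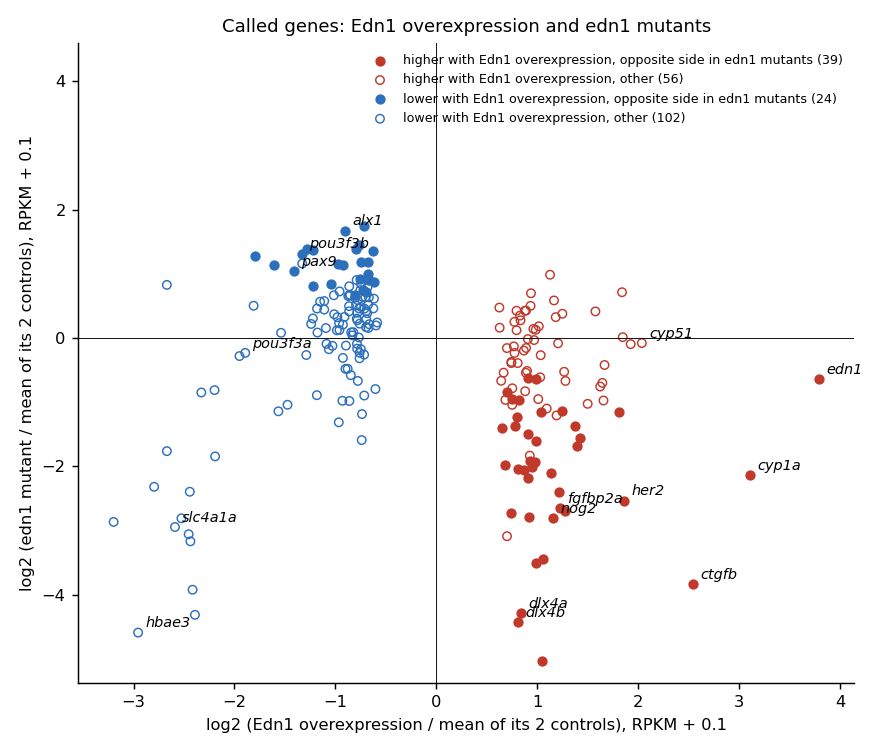
Each of the 221 called genes is placed by its log2 ratio with Edn1 overexpression to the mean of the *hsp70I*:Gal4 and *UAS*:Edn1 controls (horizontal) and in *edn1* mutants to the mean of wild types at 36 hpf and *jag1b* siblings (vertical), with 0.1 added to each RPKM. Filled points are the 39 genes that rose and were at least 1.5-fold below both controls in mutants (red) and the 24 that fell and were above both (blue); *hbae3* and *slc4a1a* were low in both the Edn1 overexpression and the *edn1* mutant library.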

How the data were processed

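RNA was extracted from FACS-sorted *fli1a*:EGFP; *sox10*:DsRed double-positive cells, and amplified cDNA was sequenced. The paper names Illumina HiSeq and NextSeq machines with different read lengths. The machine of each library was not taken into account here, and its part in these results was not tested. The authors aligned trimmed reads to GRCz10 with TopHat2 and deposited RPKM values that Partek's E/M quantification gave for Ensembl release 80 genes, 1 library per condition. RPKM was used as deposited, without a pseudocount in folds; 0.1 was added for list medians. The limits of RPKM 3 and 1.5-fold are numbers the study also used, there on the wild-type 36 hpf library, on enrichment and on ratios of fold changes, not as here. Relative depth and whole reads were recovered from the steps between RPKM values, with a tolerance of 0.06 of a read, for 5720 of 8155 genes (70.1%); intervals are exact (Clopper-Pearson) at 95%. Strand was not given in the sources used here, so overlapping genes cannot be separated.

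Calculations used Python 3.11.15, numpy, pandas and scipy, and scripts were tested on simulated data. Of 858 listed symbols in 31 lists, 807 matched. Genes named are members of the Edn1 signaling, ventral-intermediate and dorsal lists, the 12 largest changes in each direction (clone-based symbols left out), the 10 among arch-enriched genes, up to 6 called members in each direction and the most abundant members of each other list, up to 10 opposite pairs in each direction and genes at the limit. Members, lists and tests were chosen with earlier results of these data known. *hmgcra*, *sqlea* and genes given only as uncalled examples were named after their values were seen, and some genes that the rule names are not reported here. No sequences or coordinates are given, since no reference of the files' build was used here.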

Additional observations from a re-analysis of the deposited data

How the results depend on the processing

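The main counts were 95 genes that rose and 126 that fell, with 12 and 30 of them arch-enriched, and 39 and 24 on the opposite side in *edn1* mutants. Counts are given here for genes that rose and then for genes that fell. With an RPKM minimum of 1 they were 164 and 297. With a limit of 2-fold they were 28 and 23, of which 3 and 6 were arch-enriched, and 12 and 2 lay on the opposite side in *edn1* mutants. With a pseudocount of 1, 69 genes fell. After rescaling by the median ratio, with the RPKM minimum applied to the rescaled values, 150 rose and 75 fell, and over the original genes tested 69 and 9 lay on the opposite side. Against the *hsp70I*:Gal4 control alone they were 328 and 414 (54 and 49 arch-enriched). Against the *UAS*:Edn1 control alone they were 171 and 333, with 73 arch-enriched genes lower. When genes also had to lie beyond both unshocked controls, 62 genes fell and 7 arch-enriched genes rose. Against wild types at 36 hpf alone, 40 of the genes that fell were higher in *edn1* mutants. In an alternative chosen after seeing the data, without genes that differed by 1.5-fold between 28 and 36 hpf, 32 rose and 28 fell (6 and 3 arch-enriched), and 13 and 1 lay on the opposite side. Leaving out genes enriched in *fli1a*:EGFP single-positive cells, also chosen after seeing the data, gave 80 and 101. Of 104 named called genes 23 lost the call in at least 1 setting, 18 of them with a pseudocount of 1 and 15 after rescaling, and 0 reversed. The cause of these differences was not tested. No paired analysis was possible because each condition has 1 library, and for the same reason no replicate could be left out. Depth limits genes of low RPKM most.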
